A study of Mus musculus with 6 samples.

Results

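The genes described here encode the receptor of the alarmin IL-33 and the MyD88 branch that carries its signal: the ligand Il33, the receptor subunits Il1rl1 and Il1rap, the inhibitory receptor Sigirr, the adaptor Myd88, the kinases Irak4, Irak1 and Irak2, the inhibitory kinase Irak3 and the ubiquitin ligase Traf6. These 10 genes of the 35297 matched by name were chosen as members of the pathway and not by their values, though with earlier results of these data known. They cover 39 of the 129698 transcripts quantified. RNA was sequenced from bone marrow-derived mast cells (BMMCs) on day 20 of culture, in 3 libraries from BALB/c and 3 from C57BL/6 mice, both naive and wild type. All 6 cultures received IL-3, IL-9, TGF-β1 and stem cell factor, and neither strain was given IL-33 or an allergen. The mouse line was the only labelled factor that separated the groups, and the labels name no batch. The age of the marrow donors is not given in the sources used here.

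IL-33 is released by damaged barrier cells and binds ST2, the product of Il1rl1, which then pairs with the accessory chain IL-1RAcP, the product of Il1rap. The TIR domains of the pair recruit MyD88, IRAK4 joins MyD88 and activates IRAK1 and IRAK2, and these engage TRAF6, from which the signal runs to NF-κB and the MAP kinases. Mast cells are known for high ST2 levels and for cytokine release upon IL-33. Both receptor genes also give soluble forms that lack the transmembrane and TIR parts; soluble ST2 acts as a decoy that captures IL-33.

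In the soluble forms exon 8 runs on past the splice donor that the membrane form uses. The sequences at these junctions are given because they tell the forms apart. The first 24 bases of each line, in lower case, are the end of coding exon 8 that both forms of a gene share, and the capitals are the coding bases that belong to that form alone (GRCm39, plus strand, GENCODE models).

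Il1rl1 soluble: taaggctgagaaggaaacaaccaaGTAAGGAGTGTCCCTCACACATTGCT

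Il1rl1 membrane: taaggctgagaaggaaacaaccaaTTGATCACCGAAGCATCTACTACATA

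Il1rap soluble: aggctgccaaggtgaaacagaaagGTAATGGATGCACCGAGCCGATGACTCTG

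Il1rap membrane: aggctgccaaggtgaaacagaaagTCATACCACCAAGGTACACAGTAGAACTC

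For Il1rl1 the soluble line runs without a break over chr1:40485812-40485861, and its last 26 bases are intronic in the membrane form, whose capitals lie in the next exon, at chr1:40489235-40489260. The soluble reading frame held 337 codons and the membrane one 567. For Il1rap the soluble line covers chr16:26519963-26520015 with 29 bases of its own, and the membrane form goes on at chr16:26529231-26529259. Its reading frames held 360 and 570 codons.

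Il1rl1 has a distal and a proximal first exon, with transcription starts 10059 bases apart on chromosome 1. The RefSeq promoter sequences (GRCm38.p6), placed on GRCm39 by an exact match, are printed as the 250 bases before each start. Capitals mark GATA words on either strand, that is GATA with A or T before it and A or G after it, the letters read by GATA factors such as GATA1 and GATA2.

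Il1rl1 distal promoter (chr1:40468480-40468729): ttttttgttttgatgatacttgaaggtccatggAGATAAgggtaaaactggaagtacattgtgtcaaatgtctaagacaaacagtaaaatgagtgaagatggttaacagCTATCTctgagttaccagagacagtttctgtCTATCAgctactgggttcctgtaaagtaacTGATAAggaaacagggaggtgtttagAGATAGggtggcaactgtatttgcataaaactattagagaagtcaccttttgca

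Il1rl1 proximal promoter (chr1:40478539-40478788): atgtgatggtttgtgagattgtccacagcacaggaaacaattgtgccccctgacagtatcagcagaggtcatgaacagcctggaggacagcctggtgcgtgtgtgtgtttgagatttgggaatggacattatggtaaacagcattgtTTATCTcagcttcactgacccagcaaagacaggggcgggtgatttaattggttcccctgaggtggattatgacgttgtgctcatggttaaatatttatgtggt

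The distal window held 5 GATA words and the proximal window 1. Of 32536 different mouse promoter windows of the same 250 bases, 26.5% held at least 1 such word and 0.043% held 5 or more. The word GAGGAA, a core of PU.1 sites, was in neither window on either strand and in 23.4% of all windows. These matches describe letters and not bound sites.

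Reads on genes numbered 28273312 to 35873008 in the BALB/c libraries and 28801421 to 37100759 in the C57BL/6 libraries. The label of the cells was checked against marker genes. All 10 mast cell markers were tested and 0 were at 0 reads. Their summed level was 73084 to 78641 CPM (counts per 1000000 reads, with TMM-scaled library sizes) in BALB/c and 85458 to 96279 CPM in C57BL/6 libraries. Of them 7 were higher in C57BL/6 at an adjusted p under 0.05, beside 27.0% of all genes tested. Basophil genes summed to 405.5 to 417.8 CPM in BALB/c and 512.3 to 523.4 CPM in C57BL/6. At this threshold 5 of 8 were higher and 1 lower in C57BL/6, beside 52.9% of all genes that differed. Most of this sum was Cd200r3 (310.3 and 296.6 CPM on average), while Cebpa was 92.7-fold, Prss34 58.1-fold, Ccl9 46.0-fold and Mcpt8 2.17-fold higher in C57BL/6. Cebpa, Prss34 and Ccl9 had only 0.104, 0.118 and 0.224 CPM on average in BALB/c, so the size of these folds is imprecise. Macrophage genes summed to 0.705 to 1.63 CPM in BALB/c and 13.3 to 13.9 CPM in C57BL/6. Of 8 such genes 2 were tested, and both were higher in C57BL/6, Adgre1 30.5-fold (adjusted p = 7.58e-06) and Cd68 4.04-fold (adjusted p = 3.54e-05), while Csf1r, C1qa, C1qb and C1qc had 0 reads in every library. Of the neutrophil genes 5 of 7, of the T cell or ILC2 genes 4 of 7 and of the eosinophil genes 2 of 5 had 0 reads throughout. Only Gata3 of these 3 lists was tested, and it was 2.26-fold higher in C57BL/6 (adjusted p = 8.72e-05, 2.05 and 4.62 CPM on average). Stromal and endothelial genes had 3 of 7 at 0, and their sum of 571.9 to 582.5 CPM and 749.9 to 766.7 CPM was mostly Pecam1, which mast cells express. Epcam of that list was lower in C57BL/6, with 26.5 and 11.9 CPM on average (2.22-fold, adjusted p = 3.21e-05). The part of these other cell types in the differences below was not tested. In RNA of whole cultures, fewer cells that express a gene and less RNA per cell cannot be told apart.

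Levels were compared between genes per length, as TPM (length-corrected transcript abundance per 1000000 transcripts). Il1rl1 stood far above the other members, at 701.5 TPM over the 6 libraries (range 644.9 to 769.8), and ranked between 149 and 170 among the genes with reads of a library. Myd88 followed at 63.2 TPM, Irak1 at 39.3 TPM, Irak4 at 26.7 TPM and Irak3 at 17.0 TPM, and the ranges of neighbours in this order did not overlap. Traf6 (9.06 TPM), Sigirr (8.49 TPM), Il1rap (6.38 TPM) and Irak2 (5.57 TPM) had overlapping ranges from each to the next, so these neighbours were not separated. Traf6 (8.14 to 9.74 TPM) lay wholly above Il1rap (5.32 to 7.14 TPM) and Irak2 (5.02 to 6.33 TPM). Sigirr (6.93 to 9.82 TPM) lay wholly above Irak2. Il33 was practically unread.

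**Figure D1:**
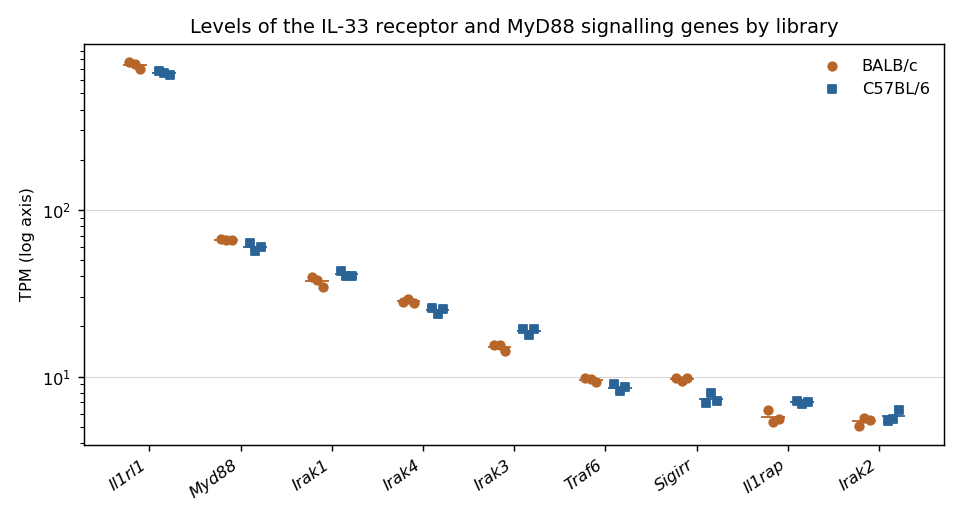
Level of each member in each library, in TPM on a log axis, with BALB/c as circles and C57BL/6 as squares and a line at each strain's mean; Il33 is left out. Il1rl1 lies between 644.9 and 769.8 TPM, more than any other member, and Irak2 between 5.02 and 6.33 TPM.

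Of the 10 members, 9 passed the filter on low counts and were tested, and Il33 did not. At an adjusted p under 0.05, 4 members differed between the strains, all of them higher in C57BL/6, against 52.9% of all 12461 genes tested that differed at this threshold and 27.0% that were higher in C57BL/6. DESeq2 called 3 members, against 31.3% of the larger set of genes without the filter on low counts. At the thresholds of the study, which also ask for more than a 2-fold change, 0 members passed (edgeR's quasi-likelihood test; 5 members had an unadjusted p under 0.05 and DESeq2 gave 0 too), against 13.3% of all genes. For 5 members the values of both strains were fully apart, against 61.9% of all genes tested. The median absolute log2 fold change was 0.23 over the 9 members and 0.24 over all genes. The share of members called was thus close to that of all genes.

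**Figure D2:**
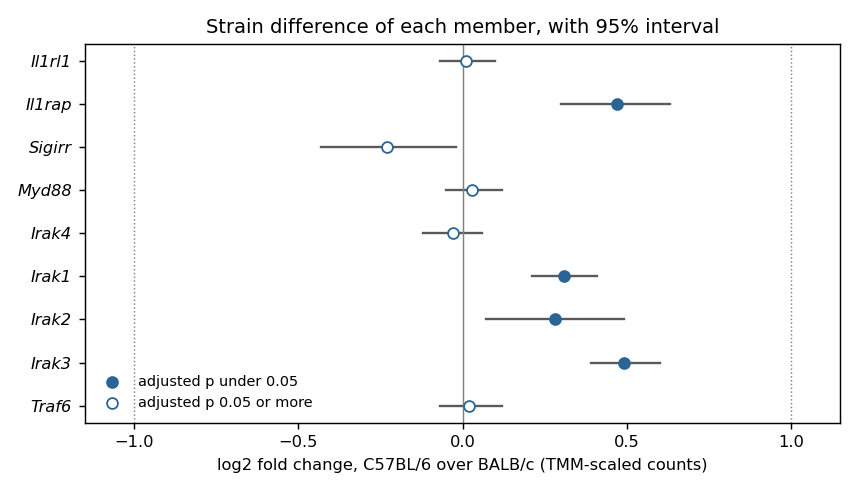
Strain difference (log2 scale, positive where C57BL/6 was higher) of the 9 members tested, with the 95% interval of the edgeR fit; filled points had an adjusted p under 0.05, and dotted lines mark a 2-fold change. Il1rap, Irak1, Irak2 and Irak3 lie above 0 and no interval reaches a 2-fold change.

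Scaling mattered for these small differences. With plain library sizes in place of TMM factors the log2 fold changes of all genes shifted by a median of -0.14, and on the TPM scale by -0.17 with a pseudocount of 1. With plain library sizes 3 members were called higher and 5 lower in C57BL/6, in place of 4 and 0, while the share of calls over all genes that were higher fell from 51.0% to 29.3%. With limma on log2(TPM + 1), 2 were higher and 4 lower. On that scale, shown in the plot of levels, every BALB/c library lay above every C57BL/6 library for Il1rl1, Myd88, Irak4, Traf6 and Sigirr. The values below are those with TMM factors, which centre the bulk of the genes near 0.

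Il33 (chr19:29902483-29938933, plus strand), the ligand, had 1 read in 1 BALB/c library and 0 reads in the other 5. A count of 0 allows 3 reads, or 0.0798 to 0.111 CPM in these libraries, which covers counting error only. Il33 reads thus did not exceed 1 in any library.

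Il1rl1 (chr1:40468730-40504575, plus strand), the ligand-binding subunit, was read at 2641, 2591 and 2465 CPM in BALB/c and at 2615, 2663 and 2499 CPM in C57BL/6. The ranges of the strains overlapped in part, with the highest value in a C57BL/6 library and the lowest in a BALB/c library. The log2 fold change was 0.01 (SE 0.04, adjusted p = 0.773), with a 95% interval of -0.07 to 0.10, that is 0.950-fold to 1.07-fold. The result depended on the scaling and on the transcript models kept. Il1rl1 was called lower in C57BL/6 with plain library sizes (-0.13, edgeR adjusted p = 0.0175) and with limma on log2(TPM + 1) (-0.15, adjusted p = 0.0233), both values outside this interval and near the shift of all genes of -0.14 and -0.17. Without predicted models it was called higher in C57BL/6 (0.61, adjusted p = 0.000891), on the reads of the curated models alone, most of them soluble.

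Il1rap (chr16:26400350-26548880, plus strand), the accessory chain, gave 18.5, 15.5 and 16.5 CPM in BALB/c and 22.8, 23.3 and 23.7 CPM in C57BL/6. Every C57BL/6 library lay above every BALB/c library. The log2 fold change was 0.47 (SE 0.07, adjusted p = 0.000624), a 1.38-fold difference with an interval of 1.23 to 1.55. It was positive and past the threshold in all 17 alternative settings, between 0.25 and 0.54.

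The balance of both receptor chains differed accordingly. Il1rl1 exceeded Il1rap in TPM 121.9, 140.3 and 125.1 times in the BALB/c libraries and 96.0, 97.5 and 91.1 times in the C57BL/6 libraries. The means were 129.1 ± 9.81 and 94.9 ± 3.38 (SD, n = 3 each), without overlap. A ratio within a library does not depend on its scaling.

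Sigirr (chr7:140670832-140680517, minus strand), an orphan receptor of the IL-1 family that dampens TIR signalling, was the only member with every BALB/c library above every C57BL/6 library in CPM. It gave 10.7, 10.6 and 11.3 CPM in BALB/c and 8.54, 10.2 and 9.15 CPM in C57BL/6. The log2 fold change was -0.23 (SE 0.09) and missed the threshold at an adjusted p of 0.059. It passed with plain library sizes (-0.37, adjusted p = 0.00482), on the TPM scale, and without C57BL/6 replicate 13 (-0.29, adjusted p = 0.0346). Most Sigirr reads lay on predicted RefSeq models, and without these the value turned to 0.54 on very few reads (adjusted p = 0.708).

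Reads of Il1rl1 fell on 3 of its 5 RefSeq transcripts. The predicted model XM_006495741.1, counted as membrane form by its length, took 96.2% ± 0.163 of the gene's TPM in BALB/c and 94.1% ± 0.201 in C57BL/6 (SD, n = 3 each). It was read at 2579, 2537 and 2412 CPM in BALB/c and at 2529, 2571 and 2419 CPM in C57BL/6. The libraries overlapped in CPM, and the log2 fold change was -0.02 (SE 0.04, adjusted p = 0.882 over 28246 transcripts, edgeR). In TPM every BALB/c library lay above every C57BL/6 library. With limma on log2(TPM + 1) this model was called lower in C57BL/6 (-0.18, adjusted p = 0.0384), near the shift of all genes of -0.17. The curated membrane model NM_001025602.3 held only 1.01 to 7.96 CPM, with a log2 fold change of -1.35 (SE 0.60, adjusted p = 0.254).

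The soluble model NM_001294171.1, placed at the distal first exon by its length, was read at 54.3, 51.3 and 48.9 CPM in BALB/c and at 83.1, 90.1 and 79.5 CPM in C57BL/6. All C57BL/6 libraries lay above all BALB/c libraries. The log2 fold change was 0.69 (SE 0.06, adjusted p = 0.00182), 1.62-fold, and 14.7% of all transcripts tested passed this threshold. The value stayed between 0.52 and 0.73 in the 9 alternatives, each of them past the threshold. A test of each transcript against the rest of its gene, chosen after seeing the data, also separated this form (edgeR's diffSpliceDGE, adjusted p = 0.00182).

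The other soluble model, NM_010743.3, placed at the proximal first exon, had 0 reads in all 6 libraries. It is 167 bases longer than NM_001294171.1, the same difference as between the first exons (228 bases proximal, 61 distal). The models were placed at their starts by this length alone, and their exons were not compared. Under this placement every soluble read of Il1rl1 was assigned to the distal start. The start used by XM_006495741.1 could not be settled from the files.

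In shares of the gene's TPM the soluble form made up 3.71, 3.57 and 3.58% of the BALB/c libraries and 5.67, 6.04 and 5.68% of the C57BL/6 libraries. The means were 3.62% ± 0.0741 and 5.80% ± 0.210 (SD, n = 3 each), a difference of 2.18 percentage points without overlap (two-sided exact permutation p = 0.1, below which 3 against 3 libraries cannot go). The difference was 1.24 points as a share of estimated reads and 3.68 points without predicted models, where the soluble form made up 95.1% and 98.7%, again without overlap. As the form-specific end lies in an intron of the membrane form, unspliced membrane RNA and soluble RNA cannot be told apart in these reads.

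For Il1rap, the membrane model NM_008364.2 gave 17.6, 14.5 and 15.4 CPM in BALB/c and 21.0, 21.9 and 22.6 CPM in C57BL/6. The strains did not overlap, and the log2 fold change was 0.45 (SE 0.09, adjusted p = 0.0329). This call of the transcript was lost in 7 of 9 alternatives, 5 of which leave out 1 library (BALB/c replicate 10 or 11, or any C57BL/6 replicate; adjusted p 0.085 to 0.115), with the direction kept. The soluble model NM_134103.2 gave 0.889 to 1.10 CPM in BALB/c and 1.08 to 1.80 CPM in C57BL/6, with a log2 fold change of 0.51 (SE 0.39, adjusted p = 0.545). Its share of the gene was 11.5% ± 1.90 and 11.7% ± 2.98, with overlapping libraries (exact permutation p = 1.0), at 28.3 to 57.5 reads per library. The difference of 2.18 percentage points seen for Il1rl1 is of the size of these SDs. This compares points and not relative change, which was not tested.

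Soluble Il1rl1 alone was more abundant than all forms of Il1rap together. In TPM it exceeded Il1rap 4.52, 5.01 and 4.48 times in the BALB/c libraries and 5.44, 5.89 and 5.17 times in the C57BL/6 libraries. The C57BL/6 libraries lay above the BALB/c libraries in this ratio, both terms of which were higher in that strain.

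Myd88 (chr9:119165000-119170486, minus strand), the adaptor, was read at 81.5, 82.3 and 83.6 CPM in BALB/c and 86.7, 82.2 and 84.0 CPM in C57BL/6. The strains overlapped, with a log2 fold change of 0.03 (SE 0.04, adjusted p = 0.496, 95% interval -0.05 to 0.12). It was called lower in C57BL/6 with plain library sizes (-0.11, adjusted p = 0.0344) and with limma on log2(TPM + 1) (-0.14, adjusted p = 0.0178). Irak4 (chr15:94441161-94479696, plus strand), the kinase that binds MyD88 first, gave 47.3, 47.7 and 48.3 CPM in BALB/c and 47.9, 45.5 and 46.8 CPM in C57BL/6. Its log2 fold change was -0.03 (SE 0.04, adjusted p = 0.528, interval -0.12 to 0.06), and it was called lower in C57BL/6 with plain library sizes (-0.18) and on the TPM scale (-0.17). Traf6 (chr2:101508519-101533545, plus strand), the ubiquitin ligase at the end of the branch, gave 40.1, 40.1 and 39.2 CPM in BALB/c and 41.6, 39.4 and 40.2 CPM in C57BL/6. The strains overlapped here as well, with a log2 fold change of 0.02 (SE 0.04, adjusted p = 0.668, interval -0.07 to 0.12). It was called lower in C57BL/6 with plain library sizes (-0.12, adjusted p = 0.0418), and missed the threshold with limma on log2(TPM + 1) (-0.14, adjusted p = 0.0845).

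In contrast to these core genes, the other kinases were higher in C57BL/6. Irak3 (chr10:119975568-120038035, minus strand), also called IRAK-M, is known to restrain the pathway. It was read at 30.8, 31.3 and 29.1 CPM in BALB/c and at 42.8, 41.6 and 43.9 CPM in C57BL/6. No library of one strain reached the other, and the log2 fold change was 0.49 (SE 0.05, adjusted p = 2.83e-05), 1.41-fold with an interval of 1.31 to 1.52. It passed in all 17 alternatives, between 0.30 and 0.52.

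Irak1 (chrX:73056964-73067554, minus strand), a kinase that carries the signal from IRAK4 to TRAF6, gave 100.4, 97.5 and 90.7 CPM in BALB/c and 121.2, 120.2 and 116.2 CPM in C57BL/6. The groups did not overlap, and the log2 fold change was 0.31 (SE 0.05, adjusted p = 0.000436), 1.24-fold. It stayed positive but missed the threshold on the TPM scale (0.13, adjusted p = 0.0724). Irak1 is X-linked, and the X-inactivation transcript Xist had 226.9 and 255.9 CPM in 2 BALB/c libraries, 0 reads in BALB/c replicate 11 and 256.6 to 298.9 CPM in C57BL/6, while Ddx3y, Eif2s3y and Kdm5d of the Y chromosome had 0 reads in all 6 and Uty had 1 to 4 reads in each. Replicate 11 had the lowest Irak1 value, and without it the log2 fold change was 0.27 (adjusted p = 0.000888).

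Irak2 (chr6:113615386-113672470, plus strand), the kinase known for sustained signalling, gave 10.55, 12.01 and 11.81 CPM in BALB/c and 12.8, 13.8 and 15.2 CPM in C57BL/6. The groups were separated by a narrow gap, with a log2 fold change of 0.28 (SE 0.09, adjusted p = 0.0283). This call was the least stable of the 4, since 9 of 17 alternatives lost it, DESeq2 (adjusted p = 0.0571) and the fits without BALB/c replicate 9 (0.0827), C57BL/6 replicate 13 (0.0603) or C57BL/6 replicate 14 (0.113) among them. The direction was kept in all 17.

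The ratio of Irak1 to Irak4, the kinase and its activator, in TPM was 1.41, 1.31 and 1.25 for BALB/c and 1.64, 1.70 and 1.58 for C57BL/6, without overlap. The ratio of the inhibitory Irak3 to Irak2 overlapped, at 2.63 to 3.09 and 3.06 to 3.55. The transcripts of the kinases were also tested singly. One model each of Irak1 (NM_001177975.1, log2 fold change 0.28, SE 0.04, adjusted p = 0.0108) and Irak3 (NM_028679.4, 0.49, SE 0.11, adjusted p = 0.0418) was higher in C57BL/6. None of Irak2, Irak4, Myd88, Traf6 and Sigirr passed, and only 14.7% of all transcripts tested did. Of all words of 31 bases in the GENCODE transcripts of a member, the share found also in another gene reached 6.40% for Irak2. It was at most 3.34% for every other member. Reads on such words were not counted, and the reads had been assigned to RefSeq models.

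Il1rl1 lies in a cluster of IL-1 family receptor genes on chromosome 1, all on the plus strand, in the order Il1r2, Il1r1, Il1rl2, Il1rl1, Il18r1 and Il18rap between positions 40113239 and 40590865. The neighbours were described after their values had been seen. Il1r2, which encodes a decoy receptor for IL-1, gave 45.8 to 46.2 CPM in BALB/c and 84.6 to 100.7 CPM in C57BL/6, with a log2 fold change of 0.97 (SE 0.07, adjusted p = 2.94e-06). Il1rl2, the IL-36 receptor gene, was also higher in C57BL/6, with 0.77 (SE 0.14, adjusted p = 0.00142). Il18r1, which begins 137 bases after the end of Il1rl1 and encodes the ligand-binding chain for IL-18, was lower in C57BL/6, with -0.54 (SE 0.12, adjusted p = 0.00415). Its partner Il18rap was higher, from 18.9 to 22.3 CPM up to 41.9 to 46.6 CPM, with 1.07 (SE 0.07, adjusted p = 2.51e-06). Il1r1, the receptor for IL-1 itself, was at or under 0.0626 CPM in every library and not tested. Of the 5 tested genes of the cluster 4 passed the adjusted p, beside 52.9% of all genes, and Il1rl1 did not with TMM factors. It was called lower in C57BL/6 with plain library sizes and on the TPM scale.

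**Figure D3:**
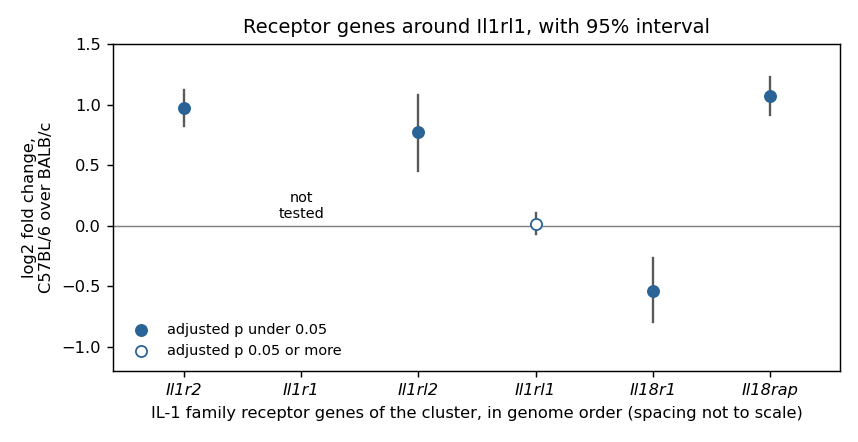
Strain difference (log2 scale, positive where C57BL/6 was higher) with its 95% interval for the receptor genes of the Il1rl1 cluster in genome order; filled points had an adjusted p under 0.05. Il1rl1 is at 0.01 between Il1rl2 at 0.77 and Il18r1 at -0.54.

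Around the members, 10 lists of pathway genes were read from the same fit. Of their 98 genes 82 were tested, and 15 were higher and 2 lower in C57BL/6 at both thresholds, which is 17 of 82 beside 13.3% of all genes (7.73% higher). At the adjusted p alone 37 were higher and 18 lower, that is 55 of 82 beside 52.9% of all genes. Their median log2 fold change was 0.09, against -0.01 over all genes.

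Of the other TIR adaptors 1 of 4 tested passed both thresholds (13.3% of all genes): Pik3ap1, the PI3 kinase adaptor BCAP, rose from 8.69 to 15.8 CPM in BALB/c to 47.8 to 58.1 CPM in C57BL/6 (log2 fold change 2.08, SE 0.17, adjusted p = 9.14e-06). Of the 6 other TRAF genes 3 were higher and 2 lower in C57BL/6 at an adjusted p under 0.05 (52.9% of all genes). Traf1 alone also passed the 2-fold threshold, with 1.05 (SE 0.29, adjusted p = 0.0140) at levels under 1 CPM. Traf7 was lower in C57BL/6, with 213.1 and 131.1 CPM on average (-0.70, SE 0.03, adjusted p = 3.87e-07).

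Of 15 ubiquitin, TAK1 and IKK genes 6 were higher and 3 lower in C57BL/6 at an adjusted p under 0.05 (52.9% of all genes). Both thresholds were passed by 2 of the 15, beside 13.3% of all genes. These 2 belong to the Pellino family of IRAK-binding ubiquitin ligases and went in opposite directions. Peli2 was read at 1.92, 2.11 and 1.41 CPM in BALB/c and at 0.125, 0.222 and 0.0847 CPM in C57BL/6 (log2 fold change -3.67, SE 0.36, adjusted p = 2.89e-05). Peli3 was higher in C57BL/6, by 1.53 (SE 0.30, adjusted p = 0.00237), from 0.186 to 0.302 CPM up to 0.688 to 0.819 CPM.

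Of the 10 NF-κB and IκB genes 1 passed both thresholds, beside 13.3% of all genes. This was Nfkbiz, which encodes the inducible nuclear IκBζ. It went from 31.9 to 42.0 CPM in BALB/c to 141.2 to 175.7 CPM in C57BL/6 (log2 fold change 2.16, SE 0.11, adjusted p = 5.28e-07). Of the 14 MAP kinase and AP-1 genes 1 passed both (13.3% of all genes), Map3k8, the kinase TPL2, with 1.22 (SE 0.17, adjusted p = 0.000317). Of the 10 negative regulators 1 passed both (13.3% of all genes), Tnfaip3, the ubiquitin-editing enzyme A20. It had 13.4 to 17.1 CPM in BALB/c and 43.1 to 47.2 CPM in C57BL/6 (1.60, SE 0.09, adjusted p = 1.03e-06). At the adjusted p alone, 4, 5 and 3 genes of these 3 lists were higher and 2, 2 and 4 lower in C57BL/6 (52.9% of all genes), and the medians were 0.01, 0.07 and 0.01.

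Most tested cytokines that mast cells release upon IL-33 were higher in C57BL/6. Of 14 listed genes 9 were tested, and 6 were higher and 1 lower in C57BL/6 at both thresholds, beside 13.3% of all genes (7.73% higher), with a median of 2.11. Ccl3 rose from 3.67 to 6.88 CPM in BALB/c to 51.4 to 82.7 CPM in C57BL/6 (3.66, SE 0.23, adjusted p = 2.00e-06), and its neighbour in function Ccl4 by 3.50 (SE 0.23, adjusted p = 2.24e-06). Ccl2 was higher by 2.11, Ccl1 by 2.67 and Tnf by 1.57, with Tnf at 32.5 to 57.1 CPM and 107.6 to 123.5 CPM. Cxcl2 had 0 reads in every BALB/c library and 1.61 to 2.96 CPM in C57BL/6, at least 25.1-fold higher against 3 reads in each BALB/c library. Il13, a type 2 cytokine, moved the other way, from 40.0, 51.4 and 46.4 CPM in BALB/c to 15.8, 12.3 and 12.1 CPM in C57BL/6 (-1.77, SE 0.12, adjusted p = 2.87e-06). No culture had received IL-33, so these are levels without that stimulus, and the other IL-1 family ligands Il1a (2.86, SE 0.24, adjusted p = 1.08e-05) and Il1b (3.36, SE 0.21, adjusted p = 1.83e-06) were higher in C57BL/6 too, Il1b at 1.81 to 3.52 CPM and 21.5 to 28.1 CPM.

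Among 7 transcription factors of mast cells 2 were higher and 3 lower in C57BL/6 at an adjusted p under 0.05, beside 52.9% of all genes, each by less than 2-fold. Of the factors whose words were searched in the promoters, Gata1 was lower in C57BL/6, with 158.0 and 115.9 CPM on average (-0.45, SE 0.06, adjusted p = 0.000215), and Spi1, which encodes PU.1, was higher by 0.18 (SE 0.05, adjusted p = 0.0157). Gata2, the factor with the highest level of the list at 701.0 TPM, was read at 1488 to 1611 CPM in BALB/c and 1613 to 1644 CPM in C57BL/6, with a log2 fold change of 0.07 (SE 0.04, adjusted p = 0.12).

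**Figure D4:**
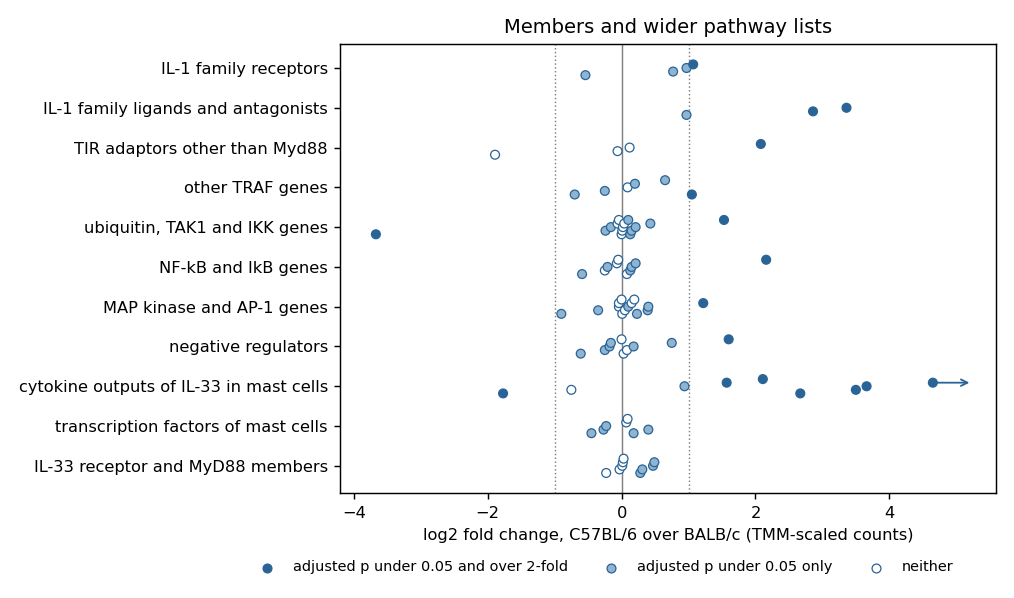
Strain difference (log2 scale, positive where C57BL/6 was higher) for every tested gene of the 10 pathway lists and the 9 members (bottom row), 1 point per gene, spread vertically for legibility; dark points passed both thresholds, light points the adjusted p alone, and Cxcl2 is drawn at its lower bound with an arrow. The members lie between -0.23 and 0.49 and Peli2 at -3.67.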

How the data were processed

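RNA of BMMC cultures on day 20 was sequenced in 3 BALB/c and 3 C57BL/6 libraries, which the study calls biological replicates. The authors checked reads with FastQC 0.11.5 and quantified transcripts with Salmon 0.8.2 (submitters' processing notes), and the deposited tables hold per transcript an estimated count, a TPM value, the length and the effective length. Salmon divides reads shared by transcripts of a gene, and that uncertainty is not in the tables. The methods name Ensembl transcripts of GRCm39, whereas the tables list RefSeq names. Reads of both strains were assigned to the same models. Any effect of sequence differences between the strains on this assignment was not tested.

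Names without version were matched to symbols through a RefSeq table (GRCm38.p6, used for names and promoters): 106440 of 129698 transcripts gave 35297 genes, and reads on the rest (2.69% to 3.12%) were left out. Estimated counts were summed per gene and rounded. edgeR 4.0.16 (R 4.3.3) tested strain by quasi-likelihood with TMM factors, its filter at a minimum count of 10 and Benjamini-Hochberg adjustment, over genes and over transcripts; the study itself used DESeq2. Calls needed an adjusted p under 0.05, and over 2-fold where stated. Exact permutation tests used scipy 1.17.1. Alternatives were DESeq2 1.42.0, transcript length offsets, other scalings and filters, limma 3.58.1 on log2 TPM with a pseudocount of 1 or 0.1, predicted models left out, unmatched transcripts kept, and each library left out. The gene fit was tested on simulated data. Replicates differed beyond sampling noise (chi-square per degree of freedom 6.6 to 13.61 over genes).

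Named were all 10 members, each Il1rl1 and Il1rap transcript with a mean of 10 reads in a strain, and from each list the genes past both thresholds or, without one, that of highest TPM. Marker genes were named as needed to check the cell type. The neighbours of Il1rl1, Traf7, Gata1, Spi1, the unread NM_010743.3 and the Irak1 and Irak3 transcripts were named outside this rule, after their values had been seen. Members and lists were chosen with earlier results of these data known. Coordinates are those of GENCODE vM39 (GRCm39). Libraries held 28273312 to 37100759 reads on genes, and 3 cultures per strain limit the precision.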

Additional observations from a re-analysis of the deposited data

How the results depend on the processing

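Il1rap and Irak3 kept their direction and call in all 17 alternatives, and 0 members passed both thresholds in any. Members past the adjusted p alone numbered 3 to 8, with 8 under plain library size and 3 to 4 when a library was left out. Genes past both thresholds numbered 1653 and moved to 1017 with 10 counts in every library and to 799 with limma on log2(TPM + 1); without a library they were 1663 to 1777. Wider list genes numbered 12 to 20. Called transcripts of Il1rl1 and Il1rap fell from 2 to 1 without a filter and with diffSpliceDGE, and were 1 to 2 without a library. The soluble share of Il1rl1 differed by 1.24 points in estimated reads, by 3.68 without predicted models, and by 2.05 to 2.24 without a library.

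Values near 0 changed sign. With plain library size, limma on log2(TPM + 1) and limma on log2(TPM + 0.1), Il1rl1 gave -0.13, -0.15 and -0.15, Myd88 -0.11, -0.14 and -0.15, and Traf6 -0.12, -0.14 and -0.15, beside shifts of all genes of -0.14, -0.17 and -0.18. Il1rl1 gave -0.01 to 0.04 without a library (below 0 without BALB/c replicate 11 and C57BL/6 replicate 13), Irak4 0.00 with either length offset, XM_006495741.1 -0.04 to 0.00 without a library, and Sigirr 0.54 without predicted models. With limma on log2(TPM + 1), XM_006495741.1 kept its sign and was called lower in C57BL/6 (-0.18, adjusted p = 0.0384). Without predicted models Il1rl1 itself gave 0.61 (adjusted p = 0.000891), since XM_006495741.1 was removed and its soluble form made up 92.8 to 99.3% of what was left.

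No paired analysis was possible because the strains share no replicate numbers. Limits are the 3 cultures per strain, which put the exact permutation p at 0.1 or above, the split of shared reads by Salmon, and the depth of soluble Il1rap and Il33.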
